A study of Mus musculus with 9 samples.

Results

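The genes described here are the potassium channel genes of the *Kcn* families, followed across primary tumours of the HR1, LM1 and LM9 mouse mammary cancer models. They were chosen by gene symbol, with earlier results of these data known. Of the 14108 genes in the count tables, 55 had a symbol of the *Kcn* or *Kctd* form, and 35 of these encode subunits of potassium channels and are the subject of what follows. The other 20 are 18 *Kctd* genes, which encode adaptor proteins with a channel-like tetramerization domain, and 2 RNAs transcribed antisense to a channel gene. RefSeq annotates 93 protein-coding *Kcn* genes in the mouse. The other 58 are not analysed here, *Kcne2* among them, and the tables list no gene whose third-highest count is below 7.

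RNA was sequenced from 9 tumours, 3 per model. HR1 is a non-metastatic line from a mammary tumour of a mouse that expressed human PIK3CA H1047R from the ubiquitous CAG promoter, and it carries GFP. LM1 and LM9 are each 1 line, grown out of lung metastases that arose from HR1 cells carrying a doxycycline-inducible *piggyBac* transposon, so the mutant PIK3CA and GFP are shared by the 3 models. In every group 250000 cells were placed in a mammary fat pad of a female NOD/SCID mouse aged 4 to 8 weeks, a host without functional T and B cells, and GFP-positive cells were sorted from tumours resected before they reached 1500 mm3. The study classed LM1 and LM9 as *Nfib* high-expression and HR1 as *Nfib* low-expression. Because each model is a line and not a set of independent lines, the tests below measure the spread between tumours of the same line.

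Potassium channels let potassium ions leave or enter cells and thereby set the membrane potential, cell volume and, through the electrical driving force, calcium entry. The pore is formed by voltage-gated (such as *Kcna*, *Kcnd*, *Kcnh* and *Kcnq*), inward rectifier (*Kcnj*), two-pore domain (*Kcnk*) or calcium- and sodium-activated (*Kcnma*, *Kcnn*, *Kcnt*) subunits. Auxiliary subunits (*Kcnab*, *Kcne*, *Kcnip*, *Kcnmb*) do not conduct but change how the pore opens. KCNE4 is a small membrane protein with a single transmembrane segment that inhibits several voltage-gated channels, KCNQ1 among them.

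*Kcne4* lies on the forward strand of chromosome 1 of GRCm38 at chr1:78816911-78820032. Its upstream sequence is shown because *Kcne4* had the largest rise among the subunit genes and the study concerns NFIB, a factor that binds palindromes of the form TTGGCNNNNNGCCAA. These are the 250 bases before the RefSeq start of the gene (RefSeq, GRCm38.p6, chr1:78816661-78816910, forward strand), with capitals for TTGGC, which is 1 arm of that palindrome, and for CACGTG, which contains ACGTG, the core of hypoxia response elements, on both strands.

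Kcne4: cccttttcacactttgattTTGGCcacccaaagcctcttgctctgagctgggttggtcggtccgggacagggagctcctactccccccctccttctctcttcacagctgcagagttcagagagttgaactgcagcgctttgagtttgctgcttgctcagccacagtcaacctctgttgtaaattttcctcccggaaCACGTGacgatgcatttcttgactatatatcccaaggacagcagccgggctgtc

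Promoter sequences from 250 bases before to 50 after a start were at hand for 24 of the 35 subunit genes, in 35 windows. TTGGC, on either strand, occurred in 14 of these windows, belonging to 12 genes, against 46.7% of all 32851 promoter windows of the mouse. ACGTG occurred in 10 windows of 8 genes, against 19.6% of all windows. The full palindrome occurred in none of the 35 windows and in 0.0365% of all windows. These are matches of letters and not sites of binding.

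Total counts per tumour lay between 32393958 and 46681945, so 3 counts, taken as the smallest amount told from 0, were worth 0.0643 to 0.0926 CPM (the count of a gene scaled to the size of its library and normalised by TMM factors). The reads carry no molecular identifiers, so the floor covers counting error only. HR1 replicate 1 stood apart from the other HR1 tumours. Its *Nfib* level was 1343 CPM, against 23.9 and 18.3 CPM in HR1 replicates 2 and 3, 579 to 791 CPM in LM1 and 421 to 583 CPM in LM9, so this tumour went against the *Nfib* low-expression class of its model. The correlation of log2 CPM between HR1 tumours was 0.894 to 0.969, against 0.990 to 0.995 within LM1 and within LM9, described over genes. Counts without HR1 replicate 1 are therefore given beside the main ones. Of a list of 8 epithelial markers, *Krt8* and *Cldn7* were not among the listed genes, and the other 6 summed to 7.55 to 121 CPM in HR1, with HR1 replicate 1 the lowest, 158 to 181 CPM in LM1 and 14.4 to 18 CPM in LM9. *Krt14*, a basal keratin, made up most of the sum in LM1 and LM9, at 152 to 175 and 12.2 to 15.4 CPM, while *Epcam* did not exceed 4.49 CPM in any tumour. The part of this difference between the models in the results was not tested.

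LM1 and LM9 as a pair differed from HR1 in 16 of the 35 subunit genes, 7 higher and 9 lower (edgeR's quasi-likelihood test, Benjamini-Hochberg adjusted p under 0.05 over 14086 genes). Over all tested genes 43.6% were called in this comparison, 19.9% higher and 23.6% lower, so the share of subunit genes called, 45.7%, was close to the background. LM1 versus HR1 gave 11 calls, 7 higher and 4 lower, against a background of 35.5%, 16.7% higher and 18.7% lower. LM9 versus HR1 gave 15, 7 higher and 8 lower, against 42.3%, 20.4% and 21.9%, and LM9 versus LM1 gave 6, 3 higher and 3 lower, against 22.0%, 11.5% and 10.6%. Groups that did not overlap were counted too. Every LM tumour lay above or below every HR1 tumour for 9 of the 35 genes, 7 above and 2 below, against 29.9% of all genes, 15.6% above and 14.3% below. For LM1 and HR1 this held for 16, 12 above and 4 below, against 45.6%, 23.9% and 21.7%. For LM9 and HR1 it held for 17, 10 above and 7 below, against 53.3%, 28.0% and 25.3%, and for LM9 and LM1 for 21, 12 above and 9 below, against 63.0%, 31.9% and 31.1%. The median absolute log2 fold change of the 35 genes was 1.81 for LM1 and LM9 together, beside 0.57 over all tested genes, and their median level over the 9 tumours was 2.14 CPM against 23.7 CPM over all tested genes. Without HR1 replicate 1 the calls rose to 22, 20, 21 and 12 in the 4 comparisons, while the share of all genes called rose to 56.0%, 52.8%, 55.7% and 45.5%. The 16, 11, 15 and 6 genes called with this tumour were still called without it. With each of the 9 tumours left out in turn, 10, 8, 9 and 4 of these calls held in every fit, those of *Kcne4* and *Kcnj14* among them in the 3 comparisons with HR1, which share the HR1 tumours.

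**Figure D1:**
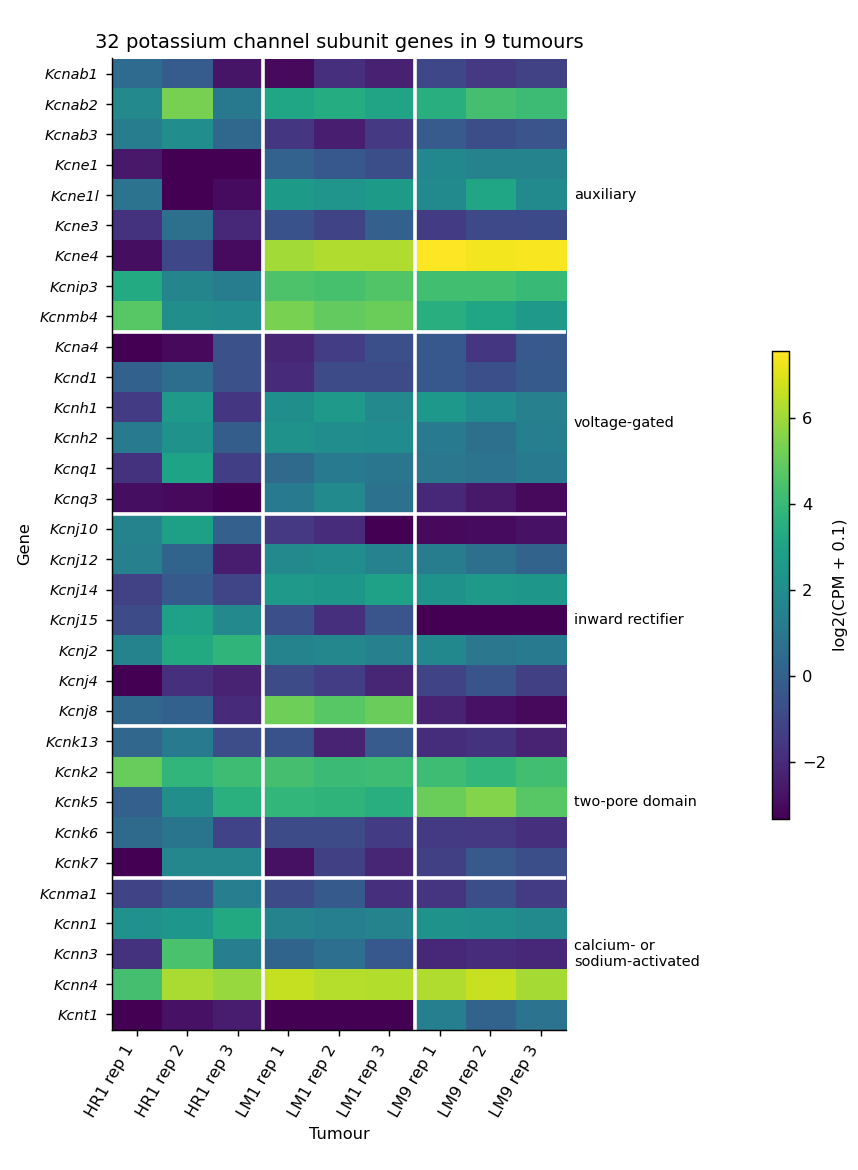
Level of 32 of the 35 subunit genes (rows, grouped by class) in each of the 9 tumours (columns, 3 replicates per model), as log2(CPM + 0.1) on a colour scale from dark (low) to yellow (high). *Kcne4* is dark in HR1 and bright in LM1 and LM9, *Kcnj8* is bright in LM1 alone, and many HR1 rows differ from tumour to tumour.

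Among the auxiliary subunits *Kcne4*, *Kcne1* and *Kcnip3* rose in both LM1 and LM9, and *Kcnab3* fell in both. The other 5 of the 9 auxiliary genes did not pass the test in any comparison with HR1. *Kcne4* was near the floor in HR1 and was, per kilobase of exon, the most abundant of the 35 genes in both LM models. Its counts in HR1 were 1, 18 and 1 in replicates 1, 2 and 3, that is 0.0332, 0.405 and 0.0257 CPM. In LM1 the levels were 64.8, 77.3 and 77.3 CPM and in LM9 187, 163 and 174 CPM. The 3 groups did not overlap. On the log2 scale *Kcne4* was higher by 8.72 ± 0.64 (SE) in LM1 (adjusted p = 1.0e-04) and by 9.98 ± 0.66 in LM9 (adjusted p = 3.5e-05). The size of this difference rests on the 18 reads of HR1 replicate 2. Without that tumour both HR1 tumours left had 1 count, under the floor. The fitted log2 differences were then 11.2 ± 0.28 in LM1 (adjusted p = 3.0e-06) and 12.4 ± 0.28 in LM9 (adjusted p = 1.5e-06). Their size depends on how the fit treats such low counts.

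HR1 replicate 1 had the highest *Nfib* level of the 9 tumours and 1 read of *Kcne4*. LM9 tumours had more *Kcne4* than LM1 tumours, 175 ± 11.9 (s.d., n = 3) against 73.1 ± 7.19 CPM, a log2 difference of 1.26 ± 0.43 with an adjusted p of 0.0653 in edgeR's model over the 9 tumours. The call depends on the test and on the tumours that enter the fit. With the LM1 and LM9 tumours alone in edgeR the adjusted p was 3.5e-06, and over all 9 tumours it was 0.00347 in DESeq2 and 0.00229 in limma-voom. No other gene lies between *Kcne4* and *Acsl3* on 1 side or *Ap1s3* on the other among the listed genes. *Ap1s3* encodes a subunit of a clathrin adaptor and lies 790 kb away. Distances here and below are between the lower coordinates of the genes, not the gaps between them. *Ap1s3* was also higher in LM1 and LM9, with means of 0.164 CPM in HR1, 6.93 in LM1 and 3.83 in LM9 and adjusted p-values of 0.00118 and 0.00190. *Acsl3*, 159 kb away on the other side, did not pass the test in LM1 (adjusted p = 0.195) or in LM9 (adjusted p = 0.884).

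*Kcne1*, the subunit that slows the opening of KCNQ1 in the heart and inner ear, also rose in both models. It had 2, 0 and 0 counts in the HR1 tumours. It reached 0.966, 0.702 and 0.508 CPM in LM1 and 3.31, 2.82 and 2.77 CPM in LM9. It was at least 8.90-fold higher in LM1 (adjusted p = 0.00261) and at least 36.4-fold higher in LM9 (adjusted p = 5.5e-04), and LM9 exceeded LM1 by 2.02 ± 0.60 on the log2 scale (adjusted p = 0.0422). The latter call was lost without any 1 of the 6 LM tumours, with adjusted p-values up to 0.155.

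*Kcne1l*, another member of the family, was at 1.66, 0 and 0.0257 CPM in HR1. In LM1 it was at 6.03, 5.05 and 6.05 CPM and in LM9 at 3.56, 8.45 and 3.58 CPM. The groups did not overlap, yet the log2 differences of 3.39 ± 1.34 and 3.26 ± 1.33 had adjusted p-values of 0.0778 and 0.0779. The call depended on the test, with adjusted p-values of 0.0183 and 0.0218 in DESeq2 and 0.00633 and 0.00706 in limma-voom over the same 9 tumours. It also depended on HR1 replicate 1, without which *Kcne1l* was at least 78.4-fold higher in LM1 and at least 71.3-fold higher in LM9, with adjusted p-values of 2.8e-05 in both. *Kcne3*, the fourth listed *Kcne* gene, whose product keeps KCNQ1 open in epithelia, was at 0.199, 1.53 and 0.129 CPM in HR1, 0.362 to 0.914 CPM in LM1 and 0.279 to 0.45 CPM in LM9. Its groups overlapped and it did not pass the test in either model (adjusted p = 0.978 and 0.542). Its sign in LM1 rests on HR1 replicate 2, the highest of the 9 tumours, without which *Kcne3* was higher in LM1 by 1.90 ± 0.61 on the log2 scale (adjusted p = 0.0458). In LM9 the log2 difference turned as well, from -0.69 to 1.24 ± 0.61 (adjusted p = 0.138).

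**Figure D2:**
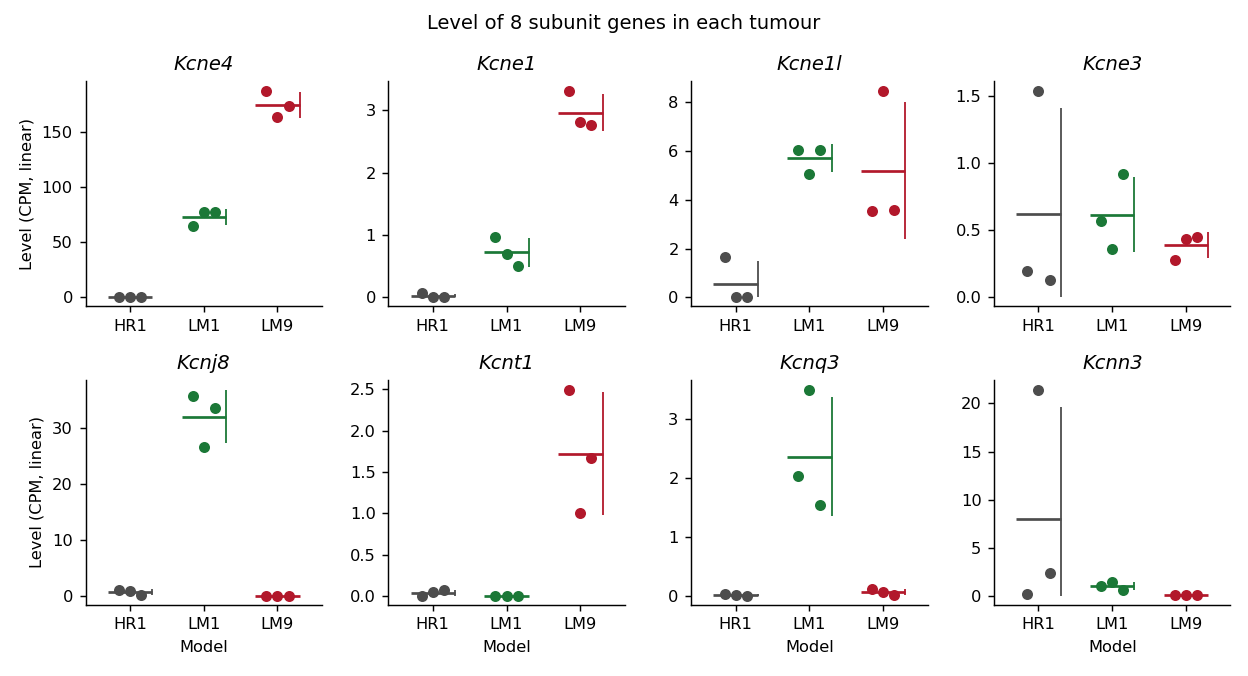
Level in CPM on linear axes of 8 subunit genes in each tumour (points), by model, with the mean (horizontal line) and s.d. (vertical line, cut at 0) of 3 tumours. *Kcne4* and *Kcne1* step up from HR1 to LM1 to LM9, *Kcnj8* and *Kcnq3* are high in LM1, *Kcnt1* is high in LM9, and *Kcnn3* and *Kcne3* are highest in 1 HR1 tumour.

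*Kcnip3*, which encodes a calcium-binding subunit of Kv4 channels that also acts as a transcriptional repressor, was at 9.91, 2.97 and 2.34 CPM in HR1. It was at 20.6 to 24.2 CPM in LM1 and 15.8 to 19 CPM in LM9, above every HR1 tumour. The log2 differences were 2.15 ± 0.49 (adjusted p = 0.00989) and 1.82 ± 0.48 (adjusted p = 0.0165), and the latter was lost when only HR1 and LM9 tumours entered the fit. Without HR1 replicate 1 they were 3.09 ± 0.19 (adjusted p = 3.1e-06) and 2.75 ± 0.19 (adjusted p = 3.9e-06). *Kcnab3*, a cytoplasmic beta subunit of voltage-gated channels, was at 2.36, 3.94 and 1.13 CPM in HR1 and fell to 0.0906 to 0.254 CPM in LM1 and 0.504 to 0.773 CPM in LM9. Its log2 differences were -3.67 ± 0.61 (adjusted p = 0.00235) and -1.96 ± 0.55 (adjusted p = 0.0205). The call in LM9 was lost without HR1 replicate 2 or any 1 LM9 tumour (adjusted p up to 0.0734).

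*Kcnmb4*, a beta subunit of the large-conductance calcium-activated channel, was at 26, 4.08 and 3.68 CPM in HR1, 30.9 to 40.7 CPM in LM1 and 5.81 to 11.1 CPM in LM9. LM1 tumours were above both other models, but no comparison passed edgeR's test over the 9 tumours. The log2 differences were 1.65 ± 0.70 for LM1 against HR1 (adjusted p = 0.0959), -0.42 ± 0.68 for LM9 against HR1 (adjusted p = 0.641) and -2.07 ± 0.70 for LM9 against LM1 (adjusted p = 0.0655). Other tests called *Kcnmb4* for LM1 against HR1 (adjusted p = 0.0329 in DESeq2 and 0.0100 in limma-voom) and for LM9 against LM1 (adjusted p = 0.0078 in DESeq2, 0.0192 in limma-voom and 1.4e-05 in edgeR with the LM tumours alone). Without HR1 replicate 1, *Kcnmb4* was higher than in HR1 by 3.19 ± 0.28 in LM1 (adjusted p = 2.1e-05), and in LM9 the direction turned, to 1.11 ± 0.26 (adjusted p = 0.00556). An annotated antisense RNA, *Kcnmb4os2*, overlaps it, and since the strand setting of the counts is not given in the sources used here, reads of the pair cannot be told apart. *Kcnab1* was at or under 1.30 CPM in every tumour, and *Kcnab2* was at 40.4 CPM in HR1 replicate 2 and at 2.01 to 20 CPM in the other 8 tumours. Neither passed the test in any comparison with all 9 tumours in the fit. Without HR1 replicate 2 the log2 difference of *Kcnab2* from HR1 turned from -0.77 ± 0.93 to 1.74 ± 0.34 in LM1 (adjusted p = 0.00762) and moved from 0.09 ± 0.92 to 2.60 ± 0.36 in LM9 (adjusted p = 0.00161). With the LM tumours alone in the fit LM9 exceeded LM1 in *Kcnab2* by 0.86 ± 0.20 (adjusted p = 0.00419).

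None of the 9 voltage-gated pore subunits was called lower in a comparison with HR1 with all 9 tumours in the fit, where 18.7% to 23.6% of all genes were. *Kcnq3*, a subunit of the M-current of neurons, had at most 1 count in each HR1 tumour. It was at 2.04, 3.49 and 1.55 CPM in LM1 and at 0.129, 0.0687 and 0.0225 CPM in LM9. It was at least 28.9-fold higher in LM1 than in HR1 (adjusted p = 6.9e-04), and the log2 difference of LM9 from LM1 was -4.94 ± 0.71 (adjusted p = 0.00299), a size that rests on LM9 replicate 1, without which the LM9 tumours had at most 3 counts (adjusted p = 0.0131).

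The voltage-gated genes *Kcna4*, *Kcnd1*, *Kcnh1*, *Kcnh2* and *Kcnq1* did not pass the test. *Kcnd1* was at 0.147 to 0.457 CPM in LM1, below every HR1 tumour (0.54 to 1.44 CPM), with a log2 difference of -1.46 ± 0.56 (adjusted p = 0.0696). *Kcnq1*, the pore partner of the KCNE proteins, was at 0.199, 7.88 and 0.309 CPM in HR1, 1.24 to 2.2 CPM in LM1 and 1.65 to 2.12 CPM in LM9. HR1 replicate 2 lay above and the other HR1 tumours below every LM tumour, so that without replicate 2 the log2 differences of *Kcnq1*, -0.68 in LM1 and -0.58 in LM9 with all tumours, turned, and it was higher by 2.76 ± 0.45 in LM1 (adjusted p = 0.00357) and by 2.86 ± 0.45 in LM9 (adjusted p = 0.00278). *Kcnh1* was at 0.266, 5.58 and 0.232 CPM in HR1, where replicate 2 lay within the LM range of 2.59 to 5.62 CPM and the others below it. Its log2 differences of 1.10 in LM1 and 0.95 in LM9 did not pass the test with all tumours, and without HR1 replicate 2 they were 4.13 ± 0.49 and 3.98 ± 0.49 (adjusted p = 0.00104 and 0.00105).

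Among the 7 inward rectifiers *Kcnj14* rose in both LM models, *Kcnj10* and *Kcnj2* fell in both, and *Kcnj8* moved in opposite directions. *Kcnj8* encodes Kir6.1, the pore of the ATP-sensitive potassium channel of vascular smooth muscle and pericytes. It was at 1.13, 0.946 and 0.154 CPM in HR1. It was at 35.8, 26.7 and 33.6 CPM in LM1 and at 0.107, 0.0458 and 0.0225 CPM in LM9. The 3 groups did not overlap. *Kcnj8* was higher in LM1 by 5.43 ± 0.65 (adjusted p = 6.0e-04) and lower in LM9, with a log2 difference of -3.58 ± 0.76 (adjusted p = 0.00639), and the difference of LM9 from LM1 was -9.01 ± 0.81 on the log2 scale (adjusted p = 4.9e-04). The size of both LM9 differences rests on the 5 counts of LM9 replicate 1, without which the LM9 tumours were under the floor and the adjusted p-values 0.0158 and 0.00381.

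*Abcc9*, which encodes the regulatory SUR2 subunit of the same channel, lies 23 kb from *Kcnj8* on chromosome 6. It was at 0.432, 1.01 and 0.154 CPM in HR1, 0.819, 0.747 and 0.813 CPM in LM1 and 0.0215, 0.0687 and 0.0225 CPM in LM9. It did not pass the test in LM1 (adjusted p = 0.528) and had at most 3 counts in each LM9 tumour, below every tumour of the other models (adjusted p = 0.00696 against HR1 and 0.00831 against LM1). *Ldhb*, a lactate dehydrogenase gene 75 kb away on the other side, had means of 0.197 CPM in HR1, 5.83 in LM1 and 0.0375 in LM9, and was higher in LM1 than in HR1 by 4.81 on the log2 scale (adjusted p = 0.00165). *Recql* and *Golt1b*, farther on that side, did not pass the test in LM1 (adjusted p = 0.516 and 0.36).

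Pericyte and smooth muscle markers were summed as well. Of the 8 markers 7 were listed, and their summed level was 556 to 1080 CPM in HR1, 220 to 240 CPM in LM1 and 168 to 227 CPM in LM9. In LM1 against HR1, 0 of the 7 were called higher, 2 lower and 5 were not called, where 16.7% of all genes were higher and 18.7% lower. The part of such cells in the level of *Kcnj8* was not tested. In bulk RNA, fewer cells of a type and less RNA per cell cannot be told apart.

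*Kcnj14* was at 0.332, 0.743 and 0.386 CPM in HR1, 5.37 to 7.47 CPM in LM1 and 4.53 to 5.72 CPM in LM9, with log2 differences of 3.65 ± 0.38 (adjusted p = 3.4e-04) and 3.39 ± 0.38 (adjusted p = 3.7e-04). *Kcnj10*, the Kir4.1 channel of glia and kidney, was at 2.79, 7.23 and 0.901 CPM in HR1. It was at 0.252, 0.159 and 0 CPM in LM1 and had at most 2 counts in each LM9 tumour. It fell by 4.68 on the log2 scale in LM1 (SE 1.05, adjusted p = 0.00956) and was at least 54.4-fold lower in LM9 (adjusted p = 0.00315). These sizes rest on HR1 replicate 2, without which the log2 difference in LM1 was -3.69 ± 0.95 (adjusted p = 0.0215) and the bound in LM9 27.6-fold (adjusted p = 0.00608), and without LM1 replicate 1 the difference in LM1 was -5.43 ± 1.36 (adjusted p = 0.0279).

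*Kcnj15*, the Kir4.2 channel, was at 0.465, 7.27 and 3.37 CPM in HR1, 0.525, 0.181 and 0.635 CPM in LM1 and had no count in any LM9 tumour. It was at least 55.4-fold lower in LM9 than in HR1 (adjusted p = 0.00401) and at least 6.69-fold lower than in LM1 (adjusted p = 0.0308), the latter lost without LM1 replicate 1 or 3 or any 1 LM9 tumour (adjusted p up to 0.0863). The bound against HR1 was 28.7-fold without HR1 replicate 2 (adjusted p = 0.00751). LM1 and HR1 overlapped (adjusted p = 0.0523). *Kcnj2*, the strong rectifier Kir2.1, was at 2.79, 9.61 and 13.6 CPM in HR1, 2.54 to 3.22 CPM in LM1 and 1.88 to 3.24 CPM in LM9. HR1 replicate 1 lay within the LM range. The log2 differences of -1.60 ± 0.52 (adjusted p = 0.0401) and -1.84 ± 0.52 (adjusted p = 0.0212) were both lost without HR1 replicate 3, LM9 replicate 2 or LM9 replicate 3, and that in LM1 also without HR1 replicate 2, LM9 replicate 1 or any 1 LM1 tumour (adjusted p up to 0.115 in LM1 and 0.0755 in LM9). Both were also lost with only the tumours compared in the fit (adjusted p = 0.0851 and 0.06). *Kcnj4* and *Kcnj12* did not pass the test and had group means of 0.0943 to 3.33 CPM. Without HR1 replicate 1 the log2 difference of *Kcnj12* in LM1 moved from 1.44 to 2.56 ± 0.77 (adjusted p = 0.0198).

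**Figure D3:**
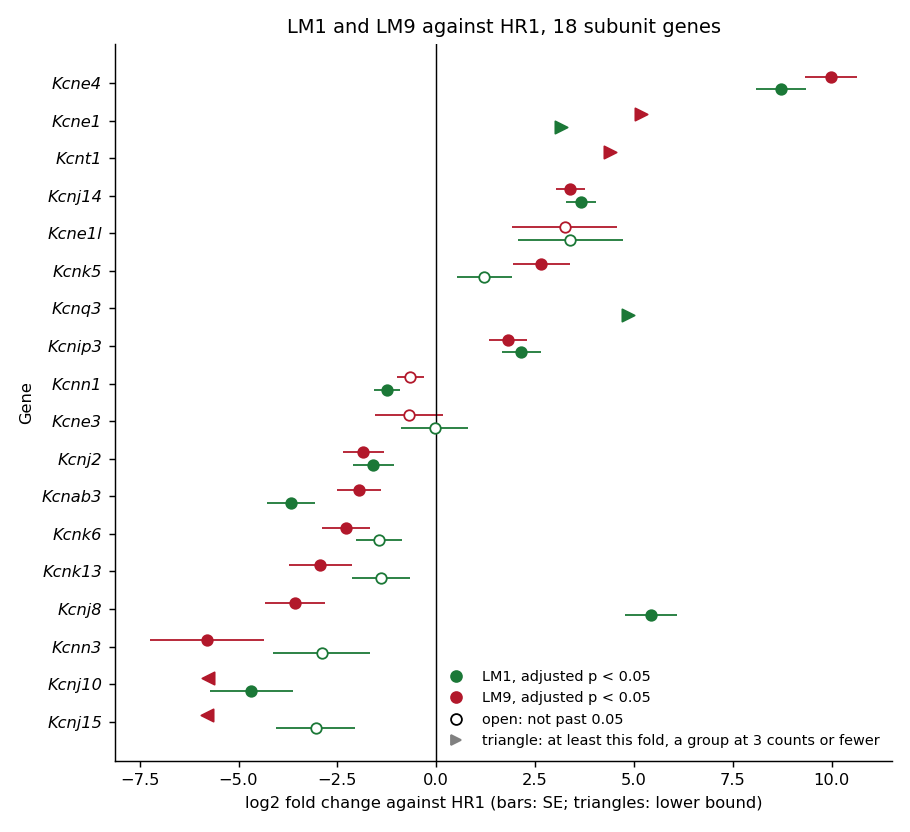
log2 fold change of 18 subunit genes (rows) in LM1 (green) and LM9 (red) against HR1, with SE bars. Filled symbols have an adjusted p under 0.05, triangles are lower bounds where a group had 3 counts or fewer in each tumour, and no symbol is drawn where both group means were under the floor. Both comparisons use the same HR1 tumours. *Kcnj8* is the gene with filled symbols on both sides of 0, at 5.43 and -3.58.

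Among the 5 two-pore domain channels, which carry background potassium currents, *Kcnk5* rose and *Kcnk13* and *Kcnk6* fell in LM9, and none passed the test in LM1. *Kcnk5*, the acid-sensitive TASK-2 channel, was at 0.898, 4.01 and 11.9 CPM in HR1, 14.7, 13.3 and 11.1 CPM in LM1 and 34.2, 45.7 and 26.4 CPM in LM9. Every LM9 tumour lay above every other tumour, and the log2 difference from HR1 was 2.66 ± 0.72 (adjusted p = 0.0184) and, without HR1 replicate 3, 3.83 ± 0.60 (adjusted p = 0.00225). *Kcnk13* was at 0.489 to 2.21 CPM in HR1 and 0.113 to 0.206 CPM in LM9, a log2 difference of -2.93 ± 0.80 (adjusted p = 0.0181). *Kcnk6* was at 0.36 to 1.76 CPM in HR1 and 0.18 to 0.258 CPM in LM9, a log2 difference of -2.28 ± 0.61 (adjusted p = 0.0171). The call of *Kcnk5* in LM9 was lost without HR1 replicate 2 or LM9 replicate 2 and with only the HR1 and LM9 tumours in the fit (adjusted p up to 0.0578), that of *Kcnk13* without HR1 replicate 2 (log2 difference -2.25 ± 0.79) or any 1 LM9 tumour (up to 0.0686) and that of *Kcnk6* without any 1 LM9 tumour (up to 0.0659). *Kcnk7*, at 0, 3.22 and 3.17 CPM in HR1 and 0.042 to 0.71 CPM in the LM tumours, passed the test for LM1 and LM9 together (adjusted p = 0.047), not for either alone (adjusted p = 0.0616 and 0.208). That call was lost without any 1 tumour other than HR1 replicate 1 (adjusted p up to 0.123).

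*Kcnk2*, the mechanosensitive TREK-1 channel, was at 32.7, 14.3 and 18.2 CPM in HR1, 16.7 to 20.4 CPM in LM1 and 14.6 to 19.2 CPM in LM9. Its groups overlapped, with log2 differences of -0.24 ± 0.29 in LM1 and -0.34 ± 0.29 in LM9 (adjusted p = 0.54 and 0.367).

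Of the 5 calcium- or sodium-activated channels *Kcnt1* rose in LM9, *Kcnn3* fell in LM9 and *Kcnn1* fell in LM1. *Kcnt1*, the sodium-activated Slack channel, had at most 3 counts in each HR1 tumour and none in LM1. It was at 2.49, 1.01 and 1.67 CPM in LM9, at least 21.1-fold above HR1 (adjusted p = 0.00341) and at least 24.9-fold above LM1 (adjusted p = 0.00366). Its nearest listed neighbours on chromosome 2, *Bmyc* and *Camsap1*, did not rise in LM9 (adjusted p = 0.0254 for *Bmyc*, which was lower, and 0.261 for *Camsap1*).

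*Kcnn3*, a small-conductance calcium-activated channel, was at 0.199, 21.4 and 2.39 CPM in HR1, 0.686 to 1.47 CPM in LM1 and 0.129 to 0.16 CPM in LM9. HR1 replicate 1 lay close to the LM9 tumours and replicate 2 far above all others. The log2 difference in LM9 was -5.80 ± 1.44 (adjusted p = 0.0128), and without HR1 replicate 2 it was -3.18 ± 0.89 (adjusted p = 0.0255). The call was lost without LM9 replicate 1 (adjusted p = 0.0535) and in limma-voom, where the log2 difference was -4.14 ± 2.01 (adjusted p = 0.127). *Kcnn1* was at 4.46, 5.16 and 9.65 CPM in HR1 and 2.49 to 2.81 CPM in LM1, a log2 difference of -1.25 ± 0.34 (adjusted p = 0.0199), a call that was lost with HR1 and LM1 alone in the fit and without any 1 LM1 tumour (adjusted p up to 0.0702).

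*Kcnn4*, the intermediate-conductance KCa3.1 channel of leukocytes and epithelia, was, per kilobase of exon, the most abundant subunit gene of HR1. It was at 20.2, 71 and 59 CPM in HR1, 95.8, 81.6 and 79.3 CPM in LM1 and 76, 98.8 and 68 CPM in LM9. LM1 tumours lay above every HR1 tumour, but neither model passed the test (adjusted p = 0.151 and 0.179). *Kcnma1*, the large-conductance channel, was at 0.178 to 2.42 CPM over the 9 tumours and did not pass the test.

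Per kilobase of exon, *Kcnn4* led in HR1 at 9.79 ± 5.19 CPM per kb, followed by *Kcnk2* at 4.40 ± 1.96 and *Kcnmb4* at 3.39 ± 3.85, and these 3 overlapped within their spread (s.d., n = 3). In LM1 *Kcne4* led at 27.5 ± 2.71 CPM per kb, followed by *Kcnn4* at 16.7 ± 1.75, *Kcnj8* at 12.6 ± 1.87 and *Kcnmb4* at 10.6 ± 1.51, of which the last pair did not differ beyond their spread. In LM9 *Kcne4* led at 65.8 ± 4.48 CPM per kb, followed by *Kcnn4* at 15.8 ± 3.13 and *Kcnk5* at 10.4 ± 2.85, of which the last pair overlapped within their spread. The summed level of the 35 genes was 127 to 232 CPM in HR1, 332 to 355 CPM in LM1 and 376 to 425 CPM in LM9. Counted in CPM and not per length, *Kcne4* made up 0.0176% to 0.175% of that sum in HR1, 18.3% to 23.2% in LM1 and 38.5% to 46.3% in LM9. Without *Kcne4* the sums were 127 to 231, 255 to 290 and 202 to 262 CPM, and HR1 and LM9 then overlapped. The inward rectifiers summed to 10.1 to 27 CPM in HR1, 39.8 to 49 CPM in LM1 and 8.84 to 10.6 CPM in LM9, most of it *Kcnj8* in LM1.

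**Figure D4:**
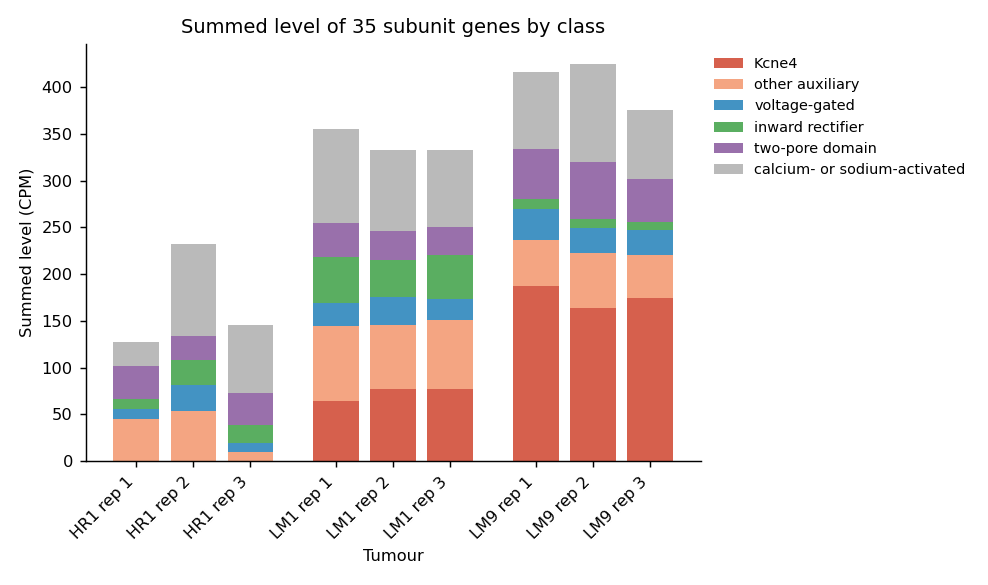
Summed level in CPM (vertical axis, from 0) of the 35 subunit genes in each tumour, split into *Kcne4*, the other 8 auxiliary genes and 4 classes of pore subunits. The *Kcne4* segment is not visible in HR1 and reaches 163 to 187 CPM in LM9, while the inward rectifier segment is widest in LM1.

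The HR1 tumours differed more from each other in these genes than the LM tumours did. In 24 of the 35 genes the highest HR1 tumour was at least 4-fold above the lowest, taking values under 3 counts as 3 counts, against 4 genes within LM1 and 1 within LM9. Over all tested genes these shares were 17.9%, 1.40% and 1.32%, beside 68.6%, 11.4% and 2.86% for the subunit genes, whose levels were lower. The median ratio of highest to lowest tumour was 5.83 in HR1, 1.65 in LM1 and 1.61 in LM9. HR1 replicate 2 was the highest HR1 tumour for 17 of the 35 genes, replicate 1 for 10 and replicate 3 for 8. Of the 9 genes lower in LM1 and LM9 together, 7 were highest in HR1 replicate 2, and of the 7 higher genes 2 were. Which HR1 tumour was highest was not counted over all tested genes, so these counts have no background beside them.

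The summed level of 10 leukocyte markers was highest in HR1 replicate 2, 935 CPM, against 572 and 208 CPM in HR1 replicates 1 and 3, 162 to 181 CPM in LM1 and 181 to 217 CPM in LM9. Of these markers 8 of 10 were lower in LM1 and LM9 together, where 23.6% of all genes were, and none was at 0 in any tumour. Fibroblast markers summed to 21776 to 34785 CPM in HR1, 10527 to 13951 CPM in LM1 and 9181 to 10665 CPM in LM9, and of 8 markers 6 were lower in LM1 and LM9 together and 1 was higher. Endothelial markers summed to 9.80 to 35 CPM in HR1, 166 to 229 CPM in LM1 and 260 to 297 CPM in LM9. In the LM models nearly all of it was *Cdh5* and *Kdr*, the 2 of 7 markers that were higher in LM1 and LM9 together. The other called markers, 4 of 7, were lower, and the median log2 difference of the 7 was -2.22. *Pecam1* did not exceed 1.25 CPM and *Cldn5* 0.356 CPM in an LM tumour. Of 10 Schwann cell and neuron markers 4 were listed, and they summed to 319, 9.59 and 26.1 CPM in HR1 replicates 1, 2 and 3, 76.1 to 83.1 CPM in LM1 and 23.7 to 31 CPM in LM9. The sum was mostly *S100b* in HR1 replicate 1 (308 CPM, against at most 7.37 CPM in any other tumour) and *Tubb3* in LM1 (74 to 80.2 CPM). All 4 were called in LM1 and LM9 together, where 43.6% of all genes were. Of these, 1 was higher, *Tubb3*, and 3 were lower, *S100b* and *Mbp* among them. The part of other cell types in the levels of the channel genes was not tested.

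**Figure D5:**
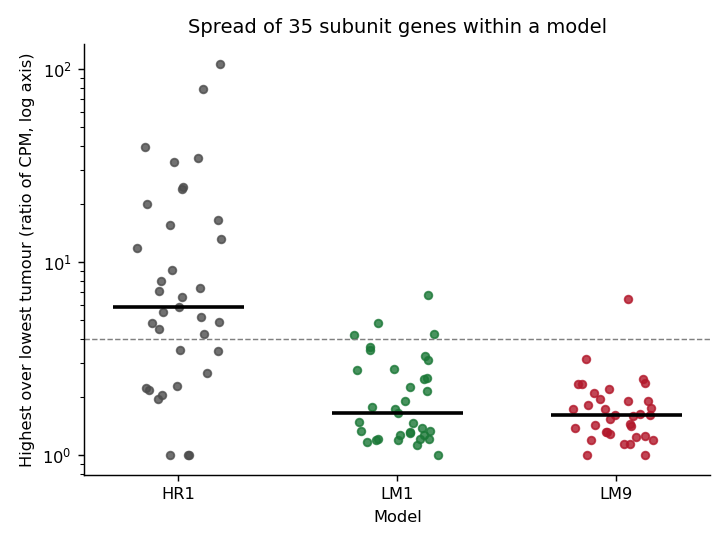
Ratio of the highest to the lowest of 3 tumours (log axis) for each of the 35 subunit genes (points) within each model, with the median (black bar) and a dashed line at 4. Ratios in HR1 reach 107 for *Kcnn3*, and 24 points lie above the line, against 4 in LM1 and 1 in LM9.

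Other genes of potassium handling were taken from a list of 40 channel partners, sodium pump subunits, cation-chloride cotransporters and their kinases, of which 27 were listed and 26 tested. LM1 and LM9 together gave 14 calls among them, 7 higher and 7 lower, LM1 gave 8 (4 and 4), LM9 gave 16 (8 and 8) and LM9 versus LM1 gave 8 (6 and 2). These are 53.8%, 30.8%, 61.5% and 30.8% of the 26 genes, beside 43.6%, 35.5%, 42.3% and 22.0% of all tested genes. The genes named next are only some of those called. More of them rose than fell, so they do not mirror the even split of calls in LM9. *Sgk1*, a kinase that keeps several channels at the cell surface, was at 75.7 to 113 CPM in HR1, 109 to 111 CPM in LM1 and 276 to 439 CPM in LM9, with a log2 difference of 1.96 in LM9 (adjusted p = 3.2e-04). *Nedd4l*, the ubiquitin ligase that SGK1 inhibits, was at 21.1 to 23.8 CPM in HR1, 18.6 to 21.2 CPM in LM1 and 60 to 69.4 CPM in LM9, with a log2 difference of 1.48 (adjusted p = 1.1e-04). *Fxyd2*, the gamma subunit of the sodium pump, was at 0.154 to 0.299 CPM in HR1 and 6.87 to 9.52 CPM in LM9 (log2 difference 5.15, adjusted p = 6.0e-05). *Stk39*, the SPAK kinase of chloride cotransporters, was at 9.57 to 17.4 CPM in HR1, 48.3 to 57.4 CPM in LM1 and 19.8 to 38 CPM in LM9, and rose in both (adjusted p = 0.00138 and 0.0214). *Slc12a4*, the cotransporter KCC1, was at 86.8 to 144 CPM in HR1 and 45.4 to 55.6 CPM in the LM tumours, and fell in both models (adjusted p = 0.00192 and 0.00171).

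The 18 *Kctd* genes gave 10 calls for LM1 and LM9 together, 3 higher and 7 lower, 6 for LM1 (1 and 5), 8 for LM9 (4 and 4) and 2 for LM9 versus LM1 (2 and 0). These shares of 55.6%, 33.3%, 44.4% and 11.1% stand beside 43.6%, 35.5%, 42.3% and 22.0% of all tested genes. Their group means ranged from 0.0442 to 546 CPM. *Kcnq1ot1*, the imprinted RNA antisense to *Kcnq1*, had means of 0.3 CPM in HR1, 0.551 in LM1 and 1.04 in LM9, with an adjusted p of 0.0136 in LM9. Without the strand setting its reads cannot be told from those of *Kcnq1* where the genes overlap.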

How the data were processed

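Gene counts of 9 primary tumours, 3 each of HR1, LM1 and LM9, were analysed. Per the labels and the study's methods, the authors sorted GFP-positive cells, prepared stranded mRNA libraries, read single ends of 50 nt, used STAR to align to mm10 and QuasR to count the 5′ ends over the exon union of a gene, and they deposited whole-number counts that are not normalised. The strand setting of the gene counts is not given in the sources used here. Model and replicate number were taken from the sample titles.

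Entrez numbers were matched to symbols with RefSeq tables of GRCm38.p6 (14085 genes) and GENCODE annotation of GRCm38 (4 genes), and 19 genes had no symbol. Of 14108 listed genes, 14086 passed edgeR's filter by expression, the 35 subunit genes among them. Counts were normalised with TMM factors (0.928 to 1.05) and fitted in 1 model of 3 groups with edgeR 4.0.16, robust quasi-likelihood F-test, in R 4.3.3. P-values were adjusted by the Benjamini-Hochberg method over all tested genes with a threshold of 0.05. The study used limma-voom, which was run as an alternative. Folds against a group with 3 counts or fewer in every tumour were computed against the mean CPM worth of 3 counts per library and are lower bounds.

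The genes named with full values are the *Kcne* genes listed and every subunit gene with a group mean of at least 1 CPM and an adjusted p under 0.05 in LM1 versus HR1, LM9 versus HR1 or LM9 versus LM1, 18 in all. Counts and sums cover the 35 subunit genes, of which 3 are not reported singly here. Other genes of families with few listed members are named with ranges, and *Kcnmb4*, *Kcnq1*, *Kcnh1*, *Kcnn4*, *Kcnk2* and the neighbours of *Kcne4*, *Kcnj8* and *Kcnt1* were described in more detail after their values were seen. The members, lists and tests were chosen with earlier results of these data known.

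Alternatives were RLE size factors or library size only, no filter or at least 1 CPM in 3 tumours, DESeq2 1.42.0, limma-voom (limma 3.58.1), the compared tumours alone, the replicate number as a block, and each tumour left out in turn. The steps were tested on simulated counts. No pair of tumours had counts within sampling noise of each other. Nothing in the sources says whether the tumours of a model came from separate cultures, so p-values measure the spread between these tumours. Python 3.11.15 with numpy 2.4.6, pandas 2.3.3 and matplotlib 3.10.9 was used for tables and figures.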

Additional observations from a re-analysis of the deposited data

Results flagged for a closer look

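For 5 of the subunit genes described the effect against HR1 in LM9 differed from that in LM1 by edgeR's quasi-likelihood test of LM9 against LM1 (adjusted p under 0.05 over all tested genes), where 22.0% of all genes were called. The fitted log2 difference of LM9 from LM1 was -9.01 for *Kcnj8* and -4.94 for *Kcnq3*, higher or lower in 3 of 3 LM9 tumours against 3 LM1 tumours in each case. It was 2.02 for *Kcne1*, whose 3 LM9 tumours lay above the 3 LM1 tumours. For *Kcnt1*, with no count in LM1, and *Kcnj15*, with no count in LM9, the fitted differences of 9.18 and -7.24 depend on the fit's treatment of 0, and the bounds are at least 24.9-fold higher and at least 6.69-fold lower. Those of *Kcne1* and *Kcnj15* were lost when single LM tumours were left out.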

How the results depend on the processing

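The number of subunit genes called moved by more than 1.5 times under few settings. DESeq2 gave 17 calls for LM1 versus HR1 and 10 for LM9 versus LM1, where it called 41.5% and 30.6% of all genes. The compared tumours alone gave 17 for LM9 versus LM1, where 56.3% of all genes were called. Leaving out single tumours, the counts ranged from 12 to 22 for LM1 and LM9 together, 8 to 20 for LM1 versus HR1, 10 to 21 for LM9 versus HR1 and 4 to 12 for LM9 versus LM1. The highest counts came without HR1 replicate 1. For *Kcne3* in LM1 the direction reversed without HR1 replicate 2, at 1.90 on the log2 scale, in a range from -0.52 to 1.90 over the tumours left out, and in LM9, where it was not called, it turned to 1.24. The direction also turned, with a call, for *Kcnab2* in LM1 and *Kcnq1* in both models without HR1 replicate 2, and for *Kcnmb4* in LM9 without HR1 replicate 1. The causes were not tested. Other size factors and filters lost 1 call, that of *Kcnj2* in LM1 with library size only, and a filter of 1 CPM in 3 tumours left some of the low genes untested. The replicate number as a block gave 11, 11, 13 and 5 calls, where 37.2%, 29.8%, 36.0% and 16.3% of all genes were called. Deviations from the group mean correlated from -0.114 to 0.296 between same-numbered tumours, with 2 of 9 over 0.1. Between differently numbered tumours they correlated from -0.301 to 0.313. With means of 3 tumours these values cannot decide whether the numbers mark a shared batch. Without HR1 replicate 1 calls were also gained for *Kcnj12*, *Kcnj15*, *Kcnk7* and *Kcnn3* in LM1 and *Kcnk7*, *Kcnma1* and *Kcnn1* in LM9, without replicate 2 for *Kcnh1* in both and *Kcnh2* in LM1, and without replicate 3 for *Kcna4* in both and *Kcnab1*, *Kcnd1*, *Kcnk5* and *Kcnk6* in LM1. The compared tumours alone lost *Kcnj2* in both models, *Kcnn1* in LM1, and *Kcnip3* and *Kcnk5* in LM9. Against HR1, limma-voom lost *Kcnj2* in LM1 and *Kcnn3* in LM9, and DESeq2 gained *Kcnab1*, *Kcnj15*, *Kcnk7* and *Kcnn3* in LM1. Where a model had 3 counts or fewer in each tumour, folds are bounds, and a difference between groups that are both so low was not detectable at this depth.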
